A study of Mus musculus with 6 samples.

Results

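The respiratory chain genes of mouse ILC2s (type-2 innate lymphoid cells) were measured by RNA-seq with and without engagement of GITR. They were taken by symbol from the protein-coding genes of the count table, as those beginning with Nduf, Uqcr, Atp5, Cox4i, Cox5, Cox6, Cox7, Cox8 or mt-, together with the succinate dehydrogenase genes Sdha to Sdhd, Cyc1, Cycs, Uqcc1 and Uqcc2. The rule found 109 of the 53278 genes listed, of which 96 lie in the nucleus and 13 on mitochondrial DNA. By complex, with both genomes counted, 43 belong to complex I, 4 to complex II, 10 to complex III, 23 to complex IV and 17 to complex V, with 10 assembly factors, Cycs and Atp5s besides.

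ILC2s came from visceral adipose tissue of C57BL/6 mice aged 8 weeks, all of which had received 3 intraperitoneal injections of 1 µg IL-33. The cells were sorted and kept with IL-2 and IL-7, each at 10 ng/mL, in both groups. One group received DTA-1, an agonistic antibody to GITR, at 5 µg/mL, and the other its isotype control, which the columns of the table call PBS. The labels give 48 h of culture, as do the study's methods, whereas its results text and a figure legend give a shorter time for the RNA-seq. Each group had 3 libraries made from 10 ng of RNA, and neither the labels nor the methods say whether these were separate mice or pools, so the p values measure the spread between these libraries, which may be technical. The comparison asks whether transcripts of the respiratory chain differ between ILC2s with DTA-1 and those with isotype control.

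The respiratory chain passes electrons from NADH (complex I) and succinate (complex II) through complex III and cytochrome c to complex IV, where oxygen is reduced, and complex V, the ATP synthase, uses the resulting proton gradient to make ATP. Complex II is encoded wholly in the nucleus, whereas the other complexes combine nuclear subunits with core subunits encoded in mitochondrial DNA, which is transcribed from both strands as long precursors that are cut at the tRNAs between the genes. Activated lymphocytes draw on both glycolysis and respiration, and ILC2s of adipose tissue are known for fatty acid use.

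The total count per library was 30569351 to 35131329, and a count of 0 allows up to 3 counts, for counting error only. ILC2 identity was checked first: the 13 marker genes were all detected, with Gata3 at 1698 ± 15.8 normalized counts (SD, n = 3) in the isotype control group against 1603 ± 76.9 with DTA-1, and Il1rl1, the IL-33 receptor, at 1178 ± 91.8 and 1110 ± 152. Of these 13 genes, 5 were fitted higher with DTA-1 and 8 lower, with 3 higher and 1 lower at an unadjusted p under 0.05 (beside 4.11% and 3.11% of all genes) and 0 differentially expressed. Those 4 were the cytokine genes Il5 (log2 fold change 0.60, SE 0.16) and Il13 (0.36, SE 0.13), the growth factor gene Areg (0.53, SE 0.17) and the costimulatory receptor gene Icos (-0.46, SE 0.15). Adipocyte markers summed to at most 16 counts in any library and neutrophil markers to at most 37. Fibroblast markers were lower on average with DTA-1, but their sums over 7 genes overlapped between the groups. By replicate, 1 to 3, these sums were 216, 77 and 297 for isotype control against 27, 9 and 127 for DTA-1. Pdgfra stood at 0 in every DTA-1 library, whereas Pdgfrb had 27 counts in DTA-1 replicate 1 and at most 1 in any other library. Of the 4 fibroblast genes tested, all were fitted lower, 2 had an unadjusted p under 0.05 and 0 were differentially expressed. The part of fibroblast RNA in the values below was not tested. Macrophage markers summed to 226 to 432 counts in the isotype control group against 268 to 370 with DTA-1, mesothelial markers to 12 to 36 and 28 to 44, B cell markers to 589 to 612 and 538 to 579, and T cell markers, several of which ILC2s share, to 1435 to 1915 and 1506 to 1585. One library stood apart: without DTA-1 replicate 1, 111 of 14911 genes (0.744%) were differentially expressed, against 0 of 14361 with all 6 libraries and 0 when any other library was left out. In this library the 4 marker genes stood at or near the isotype control level. Il5 had 5063, 5418 and 5493 normalized counts with isotype control, 5627 in DTA-1 replicate 1, and 9695 and 8899 in the other DTA-1 libraries. Areg had 194, 193 and 194 with isotype control against 188, 334 and 317 with DTA-1, and Il13 71.3, 64.0 and 75.3 against 73.7, 108 and 88.8. Icos had 156, 173 and 157 against 157, 99.0 and 98.4. The comparison of all 6 libraries, its fold changes and its intervals thus include a DTA-1 library in which these genes were at or near the isotype control level, and the counts and bounds over the members are given below also without it.

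A gene was called differentially expressed at a change of 1.5-fold or more with an adjusted p under 0.05 by edgeR's quasi-likelihood test. By this rule 0 of 104 members tested were differentially expressed, as were 0 of all 14361 genes tested (percent called 0%). At an unadjusted p under 0.05 by edgeR's test were 3 members and 1037 genes in all (7.22%). DESeq2's Wald test called 0 members and 20 of the 25251 genes with at least 1 count. Its default filter can leave low-count genes without an adjusted p, so fewer than 25251 genes may have been open to a call. The smallest adjusted p of a member was 0.657. Thus no respiratory chain gene was shown to change, and what the data give is how large a change they leave room for. In bulk RNA, fewer cells of a type and less RNA per cell cannot be told apart.

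The intervals were narrow. The 95% interval of the fold change lay wholly within 1.5-fold either way for 100 of the 104 members, beside 58.9% of all genes tested. The 86 members with at least 50 normalized counts (CPM after TMM scaling) in isotype control were all among them, and their bounds reached from 0.714-fold at the lowest to 1.26-fold at the highest. The exceptions were Cox6a2, Cox6b2, Cox7a1 and Atp5s, each at under 15 normalized counts in every library. The share over all genes is not matched to the members for level. Of the 14361 genes tested, 4441 had a mean of at least 50 normalized counts over the libraries. No share of intervals within 1.5-fold was taken at matched level, so narrow intervals are not shown to be particular to these members. Without DTA-1 replicate 1, 95 of the 104 intervals lay within 1.5-fold, beside 52.7% of all genes, and those of mt-Nd3, mt-Nd4l, Atp5e, Ndufaf2 and Ndufaf6 reached past it besides the 4 exceptions. Of the 86 members above, 85 then lay within 1.5-fold, with bounds from 0.662-fold to 1.35-fold. With all 6 libraries the median size of the log2 fold change was 0.056 over the members, beside 0.124 over all genes and 0.069 over the 4441 genes with at least 50 normalized counts.

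**Figure D1:**
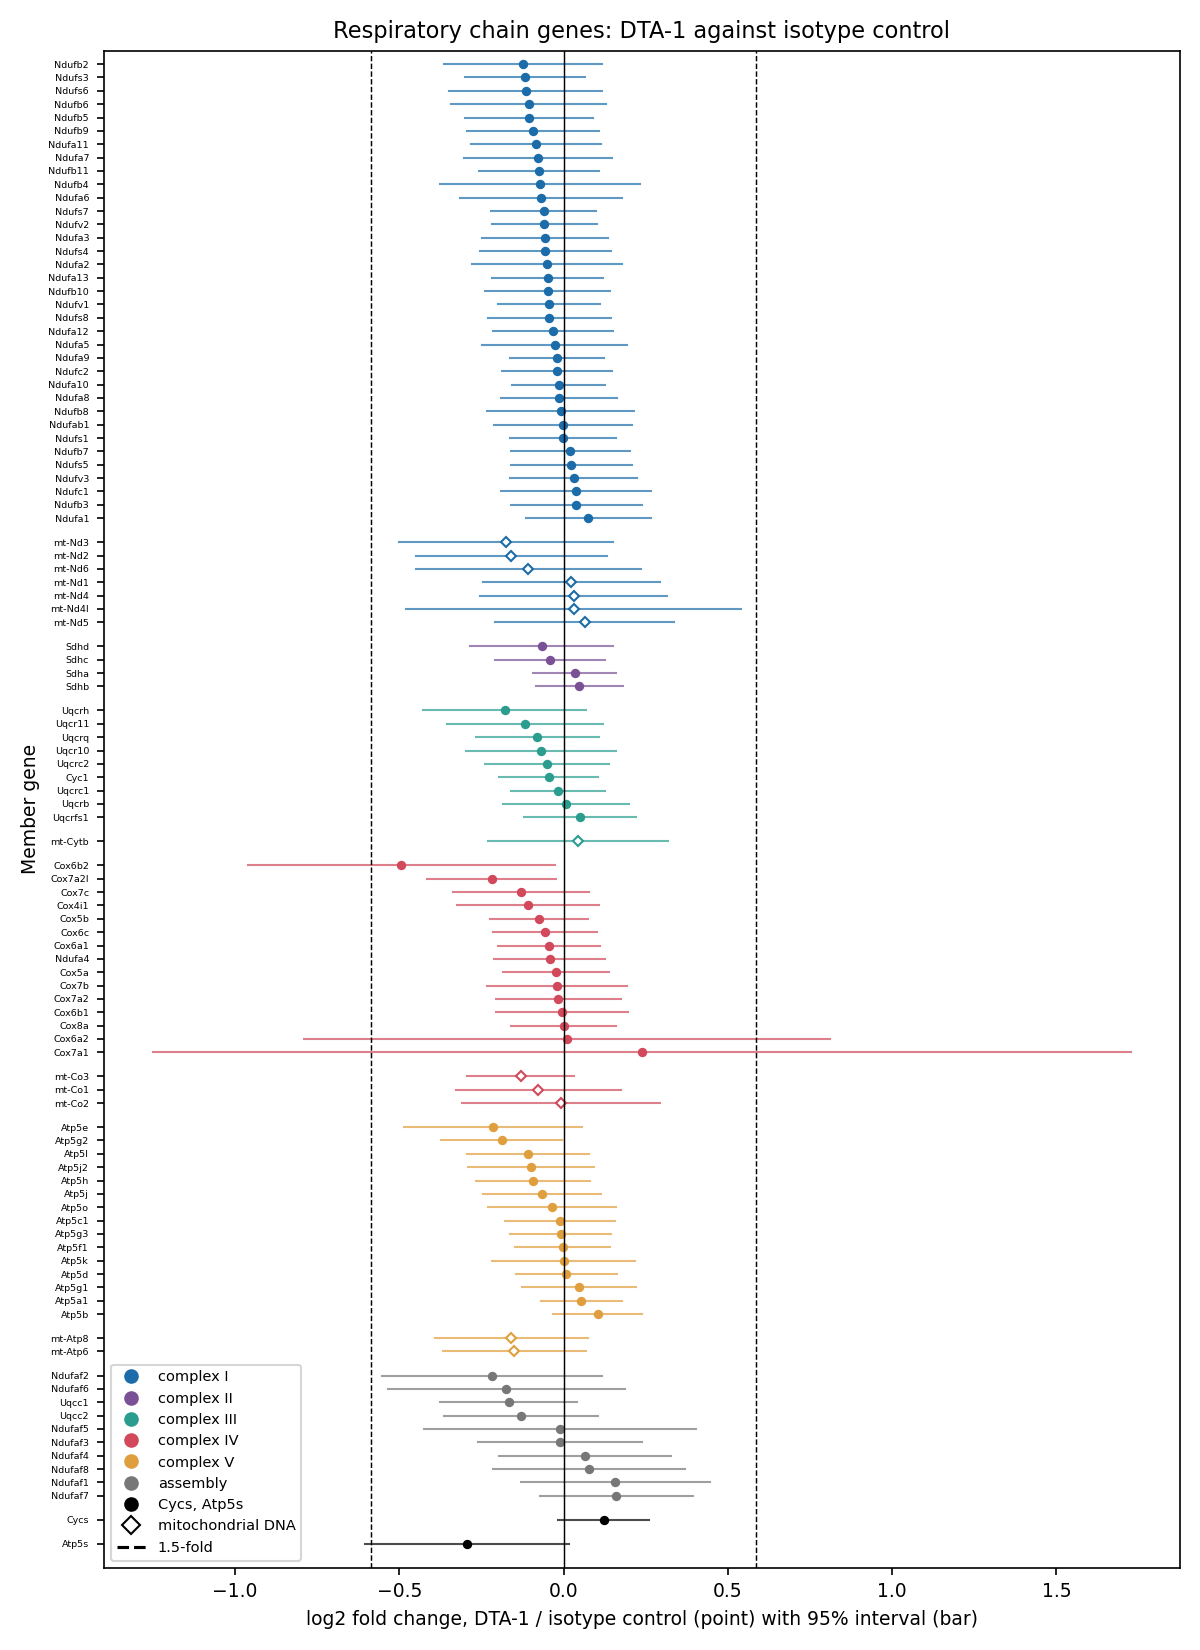
Log2 fold change of 103 of the 104 tested members, DTA-1 over isotype control, as a point with its 95% interval as a bar, grouped and coloured by complex, with open diamonds for genes of mitochondrial DNA and dashed lines at 1.5-fold. Nearly all bars lie between the dashed lines and cross 0, and the bars of Cox6b2, Cox6a2, Cox7a1 and Atp5s reach past a line.

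Summed over complexes, the groups overlapped throughout. The 36 nuclear genes of complex I summed to 3980, 3524 and 3674 normalized counts in replicates 1 to 3 of isotype control and to 3759, 3809 and 3344 in DTA-1 replicates 1 to 3. The difference was smaller than the spread between libraries (3726 ± 233 against 3637 ± 255, SD, n = 3, exact two-sided permutation p = 0.7, where 3 libraries against 3 can give no p below 0.1). Complex II summed to 910 ± 24.7 with isotype control and 918 ± 19.0 with DTA-1 (exact permutation p = 0.8), and the nuclear genes of complex III to 1355 ± 93.8 and 1313 ± 74.9 (exact permutation p = 0.6). The nuclear genes of complex IV summed to 2472 ± 197 and 2378 ± 169 (exact permutation p = 0.6), and those of complex V to 4430 ± 177 and 4480 ± 171 (exact permutation p = 0.7). Over all 109 members the sum was 19486, 17559 and 19119 with isotype control and 18371, 18387 and 18431 with DTA-1 (exact permutation p = 0.7). The 3 DTA-1 sums lay inside the range of the isotype control sums.

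In complex I, which takes electrons from NADH, the 7 nuclear core subunits were fitted lower in DTA-1 and 0 higher (median log2 fold change -0.04), from -0.117 in Ndufs3 to -0.00067 in Ndufs1, a carrier of iron-sulfur clusters. Of the 29 accessory subunits, 23 were fitted lower in DTA-1 and 6 higher. The highest fitted change among them was that of Ndufa1, with 143, 119 and 130 normalized counts with isotype control and 142, 146 and 125 with DTA-1 (log2 fold change 0.07, SE 0.087, adjusted p = 0.888). The lowest among the nuclear genes was that of Ndufb2, at 50.2, 43.9 and 47.4 against 49.1, 42.4 and 38.2 (log2 fold change -0.12, SE 0.11, adjusted p = 0.842). Both genes had overlapping groups, and no nuclear gene of complex I had an unadjusted p under 0.186.

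Complex II, the succinate dehydrogenase that also serves the tricarboxylic acid cycle, had the smallest errors, with a median SE of 0.068 in log2 units beside 0.079 to 0.089 for the nuclear genes of the other complexes. Sdha, the flavoprotein subunit, had 308, 315 and 306 normalized counts with isotype control and 312, 311 and 327 with DTA-1. Sdhb, the iron-sulfur subunit, had 328, 313 and 336 against 332, 350 and 328. Their 95% intervals ran from 0.938-fold to 1.12-fold and from 0.943-fold to 1.13-fold. The membrane anchors Sdhc and Sdhd were fitted at -0.04 (SE 0.076) and -0.07 (SE 0.099).

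In complex III, which passes electrons to cytochrome c, the highest fitted change was that of Uqcrfs1, the Rieske iron-sulfur protein (log2 fold change 0.05, SE 0.077, adjusted p = 0.927). The lowest was that of Uqcrh, the hinge protein, with 121, 101 and 110 normalized counts with isotype control and 113, 98.1 and 81.6 with DTA-1 (log2 fold change -0.18, SE 0.11, adjusted p = 0.757). Of the carriers of electrons onward, Cyc1 (cytochrome c1) was fitted at -0.05 (SE 0.068). Cycs, cytochrome c itself (chromosome 6, 50562563 to 50566538, minus strand, GRCm38), had 270, 258 and 260 normalized counts with isotype control and 269, 298 and 290 with DTA-1, and it lay just outside an unadjusted p of 0.05 (log2 fold change 0.12, SE 0.063, adjusted p = 0.726). DTA-1 replicate 1 lay within the isotype control range, and the other DTA-1 libraries lay above it.

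The 3 members with an unadjusted p under 0.05 make 2.88% of the members tested, beside 7.22% of all genes, and all 3 were lower in DTA-1, as were 3.11% of all genes at that p, against 4.11% higher. Cox7a2l (chromosome 17, 83501918 to 83517330, minus strand), a relative of Cox7a2 known for joining complexes III and IV into supercomplexes, had 107, 91.3 and 99.6 normalized counts with isotype control and 94.4, 81.8 and 79.3 with DTA-1 (log2 fold change -0.22, SE 0.089, adjusted p = 0.657). DTA-1 replicate 1 lay above the lowest isotype control library. Atp5g2 (chromosome 15, 102662864 to 102672352, minus strand), 1 of 3 nuclear genes for the proton-carrying c subunit of ATP synthase, had 86.1, 79.2 and 78.2 against 76.8, 71.3 and 65.7 (log2 fold change -0.19, SE 0.084, adjusted p = 0.681). The other c subunit genes, Atp5g1 and Atp5g3, which encode the same mature protein, were fitted at 0.05 (SE 0.079) and -0.0086 (SE 0.070). Together with Cox6b2 (below) and Atp5s, Atp5g2 was 1 of 3 members whose groups did not overlap, all with DTA-1 below, which is 2.88% of the members beside 11.3% of all genes tested (6.03% with DTA-1 below and 5.26% with DTA-1 above). Atp5s, named as factor B of the synthase, had 461, 433 and 474 raw counts against 318, 331 and 343, or 12.9 ± 0.551 normalized counts against 10.5 ± 0.241 (SD, n = 3, log2 fold change -0.29, SE 0.14, adjusted p = 0.702). None of these values passed the adjustment over all genes.

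In complex V the catalytic subunit Atp5b was the most abundant nuclear member. It had 1347, 1345 and 1287 normalized counts with isotype control and 1342, 1493 and 1440 with DTA-1, and also the highest fitted change of its complex (log2 fold change 0.10, SE 0.061, adjusted p = 0.748). DTA-1 replicate 1 again lay inside the isotype control range. The lowest was that of the small subunit Atp5e (log2 fold change -0.21, SE 0.12, adjusted p = 0.738).

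Without DTA-1 replicate 1, again 0 members were differentially expressed, beside 0.744% of all genes. In that fit 8 members (7.69%) had an unadjusted p under 0.05, beside 14.0% of all genes. Lower were Cox7a2l (-0.30, SE 0.085), Uqcrh (-0.30, SE 0.10), Atp5e (-0.30, SE 0.13), Atp5g2 (-0.25, SE 0.085), Cox6b2 (-0.58, SE 0.23) and mt-Co3 (-0.20, SE 0.062), and higher were Atp5b (0.14, SE 0.049) and Cycs (0.16, SE 0.057), all in log2 units. The smallest adjusted p among the members there was 0.139.

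The signs leaned to one side without size. Of the 104 members, 78 (75%) were fitted lower in DTA-1, beside 51.9% of all genes, and without DTA-1 replicate 1 these were 74 (71.2%), beside 52.9%. The median log2 fold change was -0.043 over nuclear members and -0.077 over those of mitochondrial DNA, beside -0.0078 over all genes. The nuclear median lay on the other side of 0 when isotype control replicate 1 (0.011) or DTA-1 replicate 3 (0.013) was left out, and the mitochondrial median when isotype control replicate 3 (0.034) or DTA-1 replicate 2 (0.0029) was.

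These members varied together from library to library, with both groups on either side of the mean. Of the 91 nuclear members tested, 84 lay above their own mean in isotype control replicate 1 and 72 in DTA-1 replicate 2, against 13 in isotype control replicate 2 and 9 in DTA-1 replicate 3. Isotype control replicate 1 was the highest of the 6 libraries for 61 of them and DTA-1 replicate 3 the lowest for 59. The median deviation of a nuclear member from its own mean was 0.13, -0.07 and 0.01 in isotype control replicates 1 to 3 and 0.03, 0.04 and -0.14 in DTA-1 replicates 1 to 3, on the log2 scale. The range between libraries of one group was therefore wider than the distance between the groups.

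Transcript length moved with these deviations. Most subunits are small proteins with short mRNAs: of the 83 nuclear members with a mean of at least 20 normalized counts, 47 have a transcript length under 1000 nt. In isotype control replicate 1 these short members deviated by a median of 0.14 and in DTA-1 replicate 3 by -0.15. Among all 561 tested genes under 1000 nt at that level the medians in those libraries were 0.12 and -0.13, and among the 1980 genes of at least 4000 nt they were -0.07 and 0.04. The log2 fold change had a median of -0.06 in the 47 short members, -0.05 in all 561 short genes, -0.01 in the 36 longer members and 0.03 in the 1980 long genes. Spearman's rho between length and log2 fold change was 0.359 across the 83 members and 0.172 across 7177 genes, a description across genes that share the same libraries. The part of length in the lean to lower values was not tested.

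**Figure D2:**
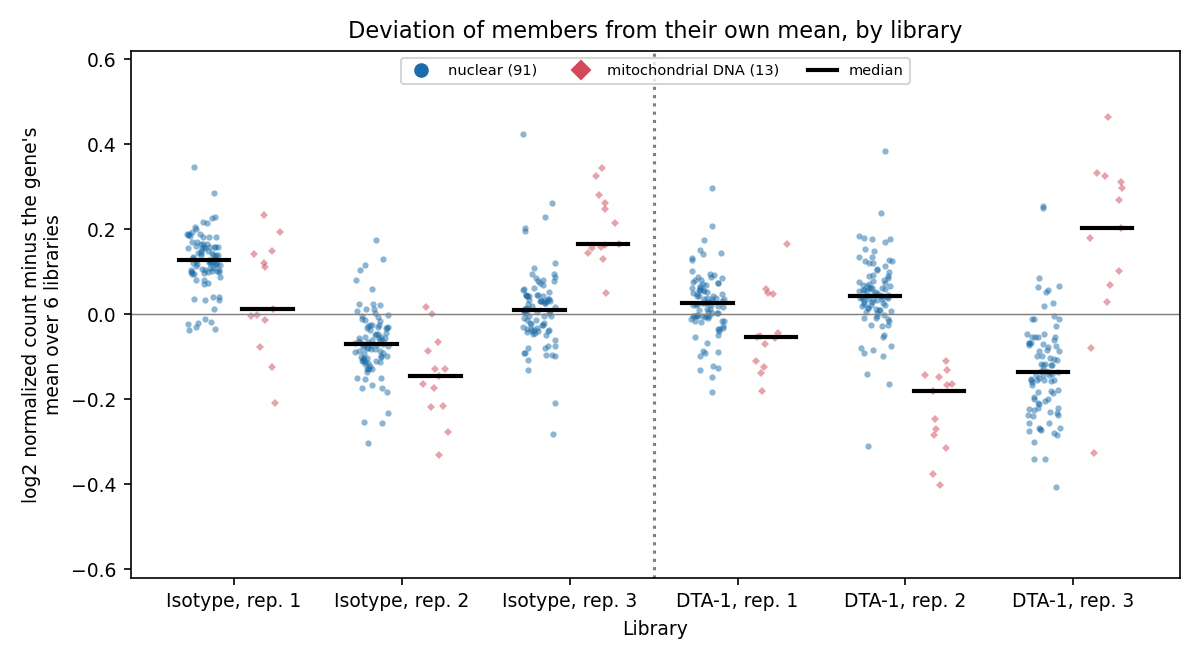
Each point is a member, placed by its log2 normalized count minus its own mean over the 6 libraries (vertical axis) in each library (horizontal axis), with blue circles for 91 nuclear members, red diamonds for 13 of mitochondrial DNA and black bars for medians. Nuclear medians are highest in isotype control replicate 1 and lowest in DTA-1 replicate 3, mitochondrial medians are highest in replicate 3 of both groups, and 2 points lie outside the axis limits of 0.62.

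The 13 mRNAs of mitochondrial DNA took 0.525, 0.483 and 0.594% of all counts with isotype control and 0.494, 0.438 and 0.578% in DTA-1 (difference -0.031 percentage points, exact two-sided permutation p = 0.6). As a share of the counts of all members they made 26.8, 27.1 and 30.6% with isotype control and 26.6, 24.6 and 32.0% with DTA-1. The summed level of these genes divided by that of the nuclear members was 0.366, 0.372 and 0.441 against 0.362, 0.326 and 0.470 (log2 difference -0.04, exact permutation p = 0.8). The groups overlapped in each measure, and replicate 3 was the highest library in both. The 2 ribosomal RNAs of mitochondrial DNA, which are not members, took 0.102, 0.0756 and 0.0948% of counts with isotype control and 0.0714, 0.0703 and 0.0754% in DTA-1 (exact permutation p = 0.1, the smallest that 3 against 3 can give).

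Per gene, 11 of the 13 were highest in replicate 3 of one group or the other. The gene mt-Co1, the catalytic subunit of complex IV, had 1343, 1231 and 1598 normalized counts with isotype control and 1187, 1219 and 1550 with DTA-1 (log2 fold change -0.08, SE 0.11, adjusted p = 0.919). mt-Cytb, the cytochrome b of complex III, had 777, 797 and 947 against 770, 764 and 1066 (log2 fold change 0.04, SE 0.12, adjusted p = 0.959). mt-Co3, with Cycs and Atp5s among the 3 members next above an unadjusted p of 0.05, had 780, 703 and 727 against 733, 620 and 665 (log2 fold change -0.13, SE 0.074, adjusted p = 0.738). In the first 2 genes the third library of each group was the highest, whereas in mt-Co3 it was not.

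Along the molecule, DTA-1 replicate 3 was the highest library at 6 genes, mt-Nd1 (0.31 above the gene's mean on the log2 scale), mt-Co2 (0.30), mt-Nd4l (0.46), mt-Nd4 (0.27), mt-Nd5 (0.32) and mt-Cytb (0.33). It lay near or below the mean at 3 neighbouring genes, mt-Atp6 (0.03), mt-Co3 (-0.08) and mt-Nd3 (-0.33). The remaining complex I genes were fitted at -0.16 (mt-Nd2, SE 0.13), -0.18 (mt-Nd3, SE 0.15), -0.11 (mt-Nd6, the gene read from the other strand, SE 0.16), 0.02 (mt-Nd1, SE 0.12), 0.03 (mt-Nd4, SE 0.13), 0.03 (mt-Nd4l, SE 0.23) and 0.06 (mt-Nd5, SE 0.12). The synthase genes mt-Atp6 and mt-Atp8, which overlap each other, were fitted at -0.15 (SE 0.099) and -0.16 (SE 0.11). The median SD within a group was 0.222 in log2 units for the 11 mitochondrial genes with at least 50 normalized counts, beside 0.113 for 74 nuclear members and 0.0958 for all genes at that level.

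**Figure D3:**
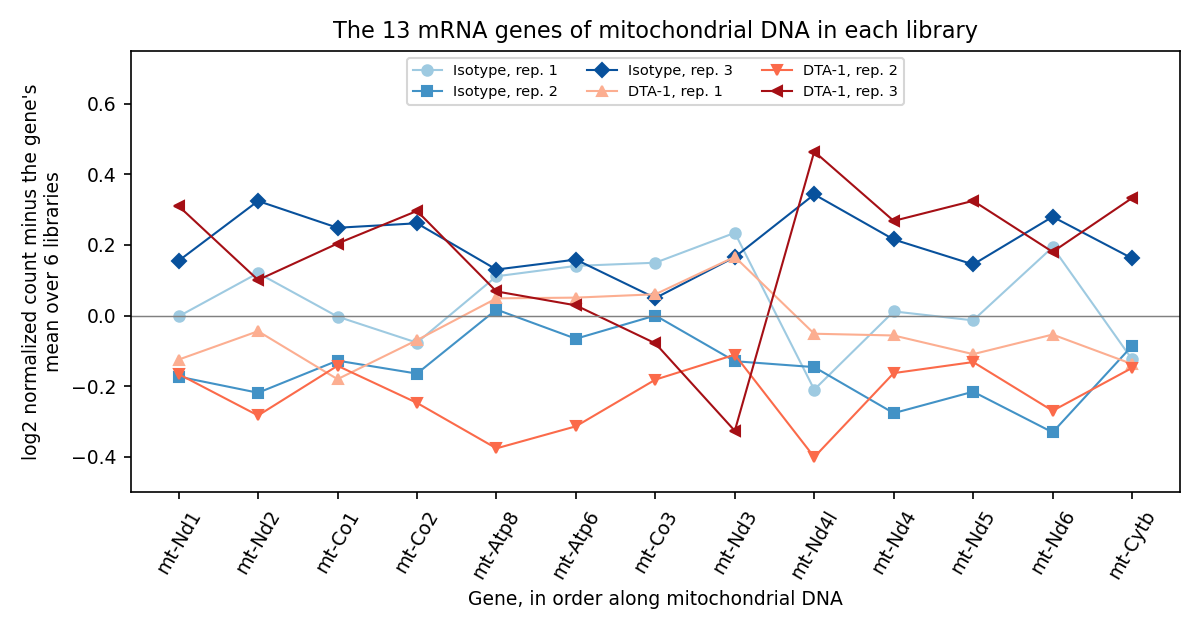
The 13 mRNA genes in their order along mitochondrial DNA (horizontal axis) with the log2 normalized count of each library minus the gene's mean over the 6 libraries (vertical axis). Replicate 3 of isotype control and of DTA-1 lie above 0 at nearly every gene, with DTA-1 replicate 3 at -0.08 in mt-Co3 and -0.33 in mt-Nd3.

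Reads of the mitochondrial genes could not all be assigned to them. A block of nuclear DNA on chromosome 1 (24611535 to 24616197, minus strand, GRCm38) is annotated in GENCODE release 21 with 7 genes that copy parts of mt-Co1, mt-Co2, mt-Atp6, mt-Co3, mt-Nd3, mt-Nd4l and mt-Nd4. By local alignment their transcripts match the mitochondrial ones over 4140 aligned bases with 2 mismatches in all, and 5 of the 7 have none. The alignment of Gm29216, of 492 bases, begins at its base 10 and covers 483, and the bases before it are not counted. The first 60 bases of mt-Co3 (mitochondrial DNA, 8607 to 9390) and its copy Gm28437 are shown because they are the same, as are all 783 aligned bases. The other pairs show the mismatches, in capitals, at the start of mt-Nd3 (9459 to 9806) and in mt-Co1 (5328 to 6872, from base 1063 of the gene), all 5′ to 3′ from the GENCODE transcripts.
mt-Co3: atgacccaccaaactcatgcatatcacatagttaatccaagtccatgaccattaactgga
Gm28437: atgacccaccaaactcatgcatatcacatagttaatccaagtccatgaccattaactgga
mt-Nd3: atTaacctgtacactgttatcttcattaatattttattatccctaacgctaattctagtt
Gm28438: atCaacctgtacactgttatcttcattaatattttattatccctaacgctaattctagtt
mt-Co1: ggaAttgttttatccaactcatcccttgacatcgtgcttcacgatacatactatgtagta
Gm29216: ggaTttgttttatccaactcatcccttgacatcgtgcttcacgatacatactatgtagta
The mismatches are T3C between mt-Nd3 and Gm28438 and A1066T between mt-Co1 and Gm29216, counted from base 1 of the mitochondrial gene.

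How close the expected counts of gene and copy lay differed from pair to pair. mt-Co3 had 27582, 24650 and 25659 counts with isotype control against 22654, 19345 and 21213 with DTA-1, and Gm28437 had 27588, 24634 and 25645 and 22646, 19335 and 21220, a ratio of 0.999 to 1.00. The copy of mt-Atp6, Gm10925, had 0.858 to 0.916 of the count of its gene, that of mt-Co2, Gm28661, 0.638 to 0.786, and that of mt-Co1, Gm29216, which covers only its last part, 0.397 to 0.452. For mt-Nd4l the ratio to Gm10222 ran from 0.728 to 1.40 between libraries, and for mt-Nd3 to Gm28438 from 0.0984 to 0.221. Gm28439, the copy of part of mt-Nd4, had 0 counts after rounding in every library. With each copy's counts added to its gene, 0 members were differentially expressed, the median of the mitochondrial genes was -0.091, and the share of counts was 0.746, 0.679 and 0.818% with isotype control and 0.692, 0.610 and 0.788% with DTA-1. The levels of mt-Co1, mt-Co2, mt-Atp6, mt-Co3, mt-Nd3 and mt-Nd4l given above are therefore uncertain by these ratios.

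**Figure D4:**
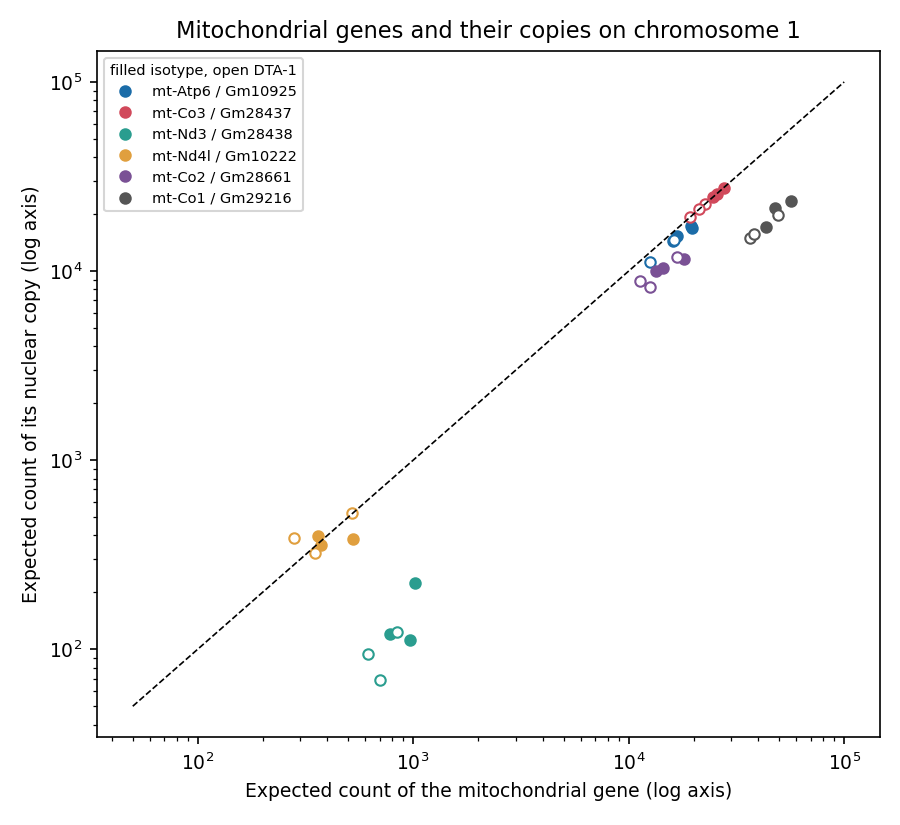
Expected counts of 6 mitochondrial genes (horizontal, log axis) and of their nuclear copies on chromosome 1 (vertical, log axis) in each library, filled for isotype control and open for DTA-1, with a dashed line of equal counts. The mt-Co3 points lie on the line, those of mt-Atp6 and mt-Co2 just under it and those of mt-Nd3 lowest against it.

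By level, corrected for length, mitochondrial genes led the members. In isotype control mt-Co3 had 939 normalized counts per kb of transcript, mt-Co1 900, mt-Atp8 850, mt-Atp6 776 and mt-Cytb 735. The nuclear gene Atp5b came next at 692, then mt-Co2 at 634 and Cox6a1 at 602. Within these ranks the copies add to the uncertainty of mt-Co3, mt-Co1, mt-Atp6 and mt-Co2. Medians per kb were 385 for mitochondrial genes, 296 for nuclear complex IV genes tested, 252 for complex V, 202 for complex III, 122 for complex II, 104 for nuclear complex I genes and 18.7 for assembly factors. The assembly factors, which build a complex without remaining in it, were thus the lowest group, and the highest of them was Uqcc2 at 104 per kb.

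Of the 10 assembly factors, 4 were fitted higher and 6 lower. Ndufaf7, a methyltransferase acting on complex I, had 30.9, 31.8 and 27.5 normalized counts with isotype control and 33.3, 36.1 and 31.5 with DTA-1 (log2 fold change 0.16, SE 0.11, adjusted p = 0.769). Ndufaf2, an assembly factor of complex I that overlaps Smim15 on the opposite strand, had 14.3, 11.8 and 14.7 against 11.8, 12.5 and 10.8 (log2 fold change -0.22, SE 0.15, adjusted p = 0.782). Uqcc2, needed for complex III, was fitted at -0.13 (SE 0.11). In each of these genes the groups overlapped.

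Complex IV has subunits with isoforms known from particular tissues, and ILC2s expressed the general form of each. Cox4i1 had 407, 330 and 348 normalized counts with isotype control and 372, 340 and 294 with DTA-1, whereas Cox4i2, the lung isoform, had raw counts of 2, 4 and 7 against 7, 3 and 0. Cox6a1 exceeded the heart and muscle isoform Cox6a2 by 297-fold per kb in isotype control and 285-fold in DTA-1, and Cox7a2 exceeded Cox7a1, of the same tissues, by 330-fold and 276-fold. The last ratios rest on few counts of Cox7a1, and without isotype control replicate 1 the isotype control ratio was 575-fold. Cox7a1 had raw counts of 26, 11 and 4 with isotype control and 14, 15 and 14 with DTA-1, and the groups overlapped (log2 fold change 0.24, SE 0.68, adjusted p = 0.960 by edgeR's quasi-likelihood test). Cox7b2 and Cox8b had 0 counts in all 6 libraries, and Cox8c had 3 counts in DTA-1 replicate 1 and 0 in the rest, beside 123 ± 10.9 normalized counts of Cox7b and 250 ± 20.8 of Cox8a in isotype control. Ndufa4, named for complex I but a subunit of complex IV, had 94.1 ± 5.93 and 91.3 ± 5.08, and its relative Ndufa4l2, which is known as a target of hypoxia signalling, had raw counts of 4, 0 and 1 against 0, 0 and 0. Cox4i2, Cox7b2, Cox8b, Cox8c and Ndufa4l2 were the 5 members too low to test.

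Cox6b2 (chromosome 7, 4751792 to 4753094, minus strand), known as the testis isoform of Cox6b1, was the exception among the isoforms in being detected well in every library. It had raw counts of 198, 189 and 233 with isotype control and 143, 124 and 124 with DTA-1, and 5.60, 5.39 and 6.60 against 4.63, 3.97 and 3.89 normalized counts. The groups did not overlap, but the change did not pass the adjustment (log2 fold change -0.49, SE 0.21, 95% interval -0.96 to -0.03, adjusted p = 0.673). Per kb it stood at 10.6 in isotype control, and Cox6b1 stood 31.8-fold above it in isotype control and 44.6-fold in DTA-1. Cox6b1 itself was level, at 228, 197 and 201 normalized counts against 207, 233 and 183.

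**Figure D5:**
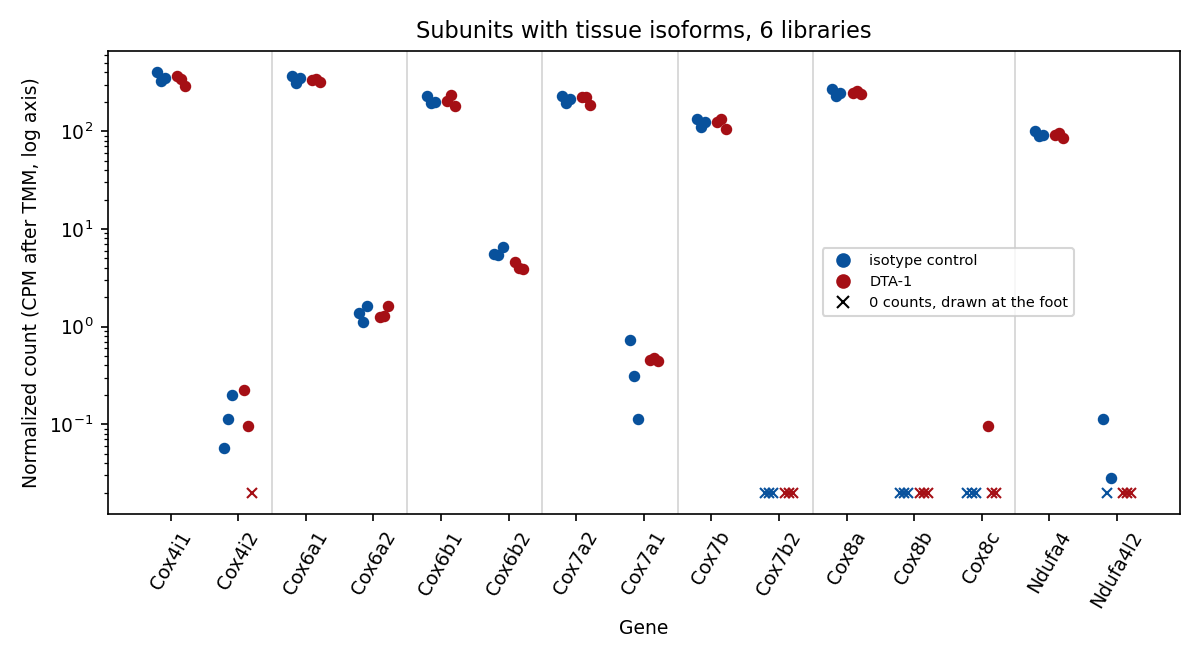
Normalized counts (vertical, log axis) of complex IV subunits and their tissue isoforms in each library, blue for isotype control and red for DTA-1, with crosses at the foot for 0 counts. The general forms lie near or above 100, Cox6b2 between 3.89 and 6.60, Cox6a2 near 1 and the other tissue isoforms at or near 0.

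The promoters of nuclear members, which their choice by symbol did not use, were searched for 5 short motifs, none of which stood in most of them. Of 96 nuclear members, 79 matched windows of 300 bases (250 before a start and 50 after it) in RefSeq (GRCm38.p6). A gene was counted when any of its windows held the letters. The letters GCGCATG, read from both strands, make up the palindrome bound by NRF1, a transcription factor of respiratory genes. On either strand these letters stood in 17 of 79 genes (21.5%), beside 5.40% of 17492 protein-coding genes. The ETS core CCGGAAG, on either strand, stood in 18 (22.8%, beside 12.9%). The YY1 core GATGGCG, on either strand, which can also hold a start codon, stood in 13 (16.5%, beside 4.95%). CCAAT, on either strand, stood in 36 (45.6%, beside 42.3%), TATAAA, on either strand, in 7 (8.86%, beside 14.8%). The median GC content was 58.5%, beside 56.3%. These are descriptions of letters, with no test, and not sites of binding. Windows that hold a match to the NRF1, ETS or YY1 motif are shown, with matches in capitals, for 3 genes. These are Cox6a1, the most abundant nuclear gene of complex IV per kb, Atp5g2, whose groups did not overlap, and Ndufs7, a core subunit of complex I. Any window of these genes without a match is not shown. The windows of Atp5g2 and Ndufs7 lie wholly inside the annotated spans of their genes (102662864 to 102672352 and 80249121 to 80256794), so they need not be the main promoters.
Cox6a1, chr5:115348909-115349208, minus strand: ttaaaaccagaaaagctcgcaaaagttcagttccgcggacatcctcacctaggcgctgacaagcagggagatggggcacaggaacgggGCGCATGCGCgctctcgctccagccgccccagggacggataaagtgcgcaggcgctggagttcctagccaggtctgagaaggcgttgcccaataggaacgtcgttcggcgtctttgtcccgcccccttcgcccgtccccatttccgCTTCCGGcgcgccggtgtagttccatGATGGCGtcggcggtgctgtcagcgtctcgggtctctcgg
Atp5g2, chr15:102670998-102671297, minus strand: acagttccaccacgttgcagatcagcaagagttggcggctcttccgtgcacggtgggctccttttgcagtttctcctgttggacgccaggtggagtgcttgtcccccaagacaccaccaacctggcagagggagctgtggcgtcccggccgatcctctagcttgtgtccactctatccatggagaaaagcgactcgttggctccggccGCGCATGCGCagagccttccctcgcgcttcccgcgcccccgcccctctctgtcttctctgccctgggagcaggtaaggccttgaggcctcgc
Ndufs7, chr10:80249199-80249498, plus strand: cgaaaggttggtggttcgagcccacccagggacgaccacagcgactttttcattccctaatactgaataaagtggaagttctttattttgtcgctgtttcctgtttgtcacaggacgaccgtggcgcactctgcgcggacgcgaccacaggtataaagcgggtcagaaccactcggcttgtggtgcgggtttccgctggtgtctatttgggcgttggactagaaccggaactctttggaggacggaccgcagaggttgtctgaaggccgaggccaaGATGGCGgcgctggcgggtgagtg
The windows with the NRF1 letters belong, among others, to Atp5g2, Cox6a1, Cycs, Sdhb, Uqcrc1 and Uqcc2, and the log2 fold changes of all 17 genes ran from -0.19 in Atp5g2 to 0.12 in Cycs. Of the 13 genes with the YY1 letters, Cox7b2 was not tested, and the log2 fold changes of the others ran from -0.12 in Ndufs6 to 0.16 in Ndufaf7.

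Some members overlap other genes, and whether strand was used in counting is not given in the sources used here. A neighbour with over 10% of the member's own counts overlapped 23 members, among them Ndufb11 with Rbm10, Ndufs1 with Eef1b2, Ndufs3 with Kbtbd4, Ndufs6 with Mrpl36, Cox4i1 with Emc8, and Ndufaf3 with Impdh2. Ndufb2 with Braf and Uqcrh with Gm12854 are also among them, the genes named above for the lowest fitted changes among nuclear genes of complexes I and III. These examples lie on opposite strands, and reads in bases shared with such neighbours could not be told apart if strand was not used. Other neighbours lie on the same strand, among them mt-Nd4 for mt-Nd4l, mt-Atp6 for mt-Atp8 and Donson for Atp5o. There strand cannot separate reads in shared bases. Overlap was judged by the whole span of each gene, introns included, so the shared bases may be few. For instance, mt-Nd4l (9877 to 10173) and mt-Nd4 (10167 to 11544) meet only at their ends. How many reads of the 23 members fall in shared bases was not measured, so their levels may be less certain than those of the rest.

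Of 158 other genes of the pathway tested, 0 were differentially expressed by edgeR's quasi-likelihood test. Their log2 fold changes ran from -0.47 in Sdhaf3 to 0.50 in Mterf2, and the 95% interval lay within 1.5-fold for 146 of them (92.4%, beside 96.2% of the members). At an unadjusted p under 0.05 were 4 higher (Myc, Mterf2, Mrpl32 and Ogdh) and 1 lower (Esrra), beside 4.11% and 3.11% of all genes. Of 78 mitochondrial ribosomal proteins, which translate the 13 mitochondrial mRNAs, 30 were fitted higher and 48 lower (median log2 fold change -0.03), with 1 higher and 0 lower at an unadjusted p under 0.05. The 13 tricarboxylic acid cycle genes tested had a median of 0.01, with 9 higher, 4 lower and 1 (higher) at that p. The 17 genes that transcribe and maintain mitochondrial DNA had a median of 0.05 (9 higher, 8 lower, 1 higher at that p), and the 8 biogenesis regulators tested a median of 0.02 (4 higher, 4 lower, 1 in each direction at that p). Assembly and related genes outside the symbols of the rule were fitted higher and lower, respectively, in 2 and 7 of 9 for complex I, 0 and 4 of 4 for complex II and 3 and 1 of 4 for complex III. For complex IV they were 7 and 13 of 20, and for ATP synthase 1 and 4 of 5. None of these genes had an unadjusted p under 0.05. Their medians were -0.03, -0.19, 0.16, -0.04 and -0.06 in the same order, those for complexes II and III over 4 genes each. The ATP synthase list was not of assembly factors alone. It held Atpaf1, Atpaf2, Tmem70, the inhibitor gene Atpif1 and Usmg5, of which Usmg5 was the 1 fitted higher (log2 fold change 0.03, SE 0.11).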

How the data were processed

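RNA-seq of 3 isotype control and 3 DTA-1 libraries was analysed from a table in which the authors deposited unnormalized expected counts, which estimate the reads of each gene and need not be whole (79.5% of values are). The submitters' processing notes name bcl2fastq 2.17.1.14, STAR 2.5.3a, Partek and the build mm10. The strand setting is not given in the sources used here. Counts were rounded, filtered by edgeR's filterByExpr (14361 genes kept), scaled by TMM and fitted by edgeR's quasi-likelihood test with robust dispersions (common dispersion 0.0256) on all 6 libraries with no covariate, with Benjamini-Hochberg adjustment over all genes tested. Normalized counts are CPM after TMM. Standard errors were derived from each gene's F statistic and give intervals at a level of 95%. Sums and shares per library were compared by exact two-sided permutation tests. Lengths are medians over a gene's APPRIS principal transcripts in GENCODE mouse release 21, or over its protein-coding, then all, transcripts where none is so tagged, and per-kb levels rest on them. The release's symbols and starts matched the table for 48184 of 49610 shared symbols.

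The total count was 30569351 to 35131329 per library. The alternatives were DESeq2's size factors, total counts, scaling without mitochondrial genes, no filter beyond 1 count, at least 10 counts in every library, limma-trend with a prior count of 2, DESeq2's Wald test, the replicate block, no fold limit, and each library left out. Adding nuclear copies to their genes was chosen after seeing the data. Members and gene lists were chosen with earlier results of these data known. Genes named are all of mitochondrial DNA, those of highest level, largest rise and largest fall in each complex and among assembly factors, succinate dehydrogenase, Cyc1, Cycs, the isoform pairs, and members just inside and outside an unadjusted p of 0.05. Members named as core subunits, for shared promoter letters, for overlap, for groups that did not overlap, for being the other c subunit genes or in the fit without DTA-1 replicate 1, and named genes that are not members, were chosen after their values were seen. Results for 1 item are not reported here. The procedure was tested on simulated data. Tools were R 4.3.3, edgeR 4.0.16, limma 3.58.1, DESeq2 1.42.0, Python 3.11.15, pandas 2.3.3, numpy 2.4.6, scipy 1.17.1 and matplotlib 3.10.9.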

Additional observations from a re-analysis of the deposited data

How the results depend on the processing

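Under each alternative listed above and without any 1 library, 0 members were differentially expressed, and the lowest adjusted p of a member in any of them was 0.139 (Cox7a2l, without DTA-1 replicate 1). The number of members at an unadjusted p under 0.05 was 3 (beside 7.22% of all genes at that p) and became 0 with the 1.5-fold limit added, 2 by DESeq2's Wald test (4.88%), 4 with total counts (7.46%), and 0 to 8 with 1 library left out: 8 without DTA-1 replicate 1 (14.0%), 3 without isotype control replicate 2 (7.33%), 1 without isotype control replicate 3 (5.17%) and 0 without any of the other 3 (4.38% to 5.80%). Over the libraries left out, the median log2 fold change ran from -0.086 to 0.013 in nuclear members and from -0.174 to 0.034 in those of mitochondrial DNA. With total counts these medians were -0.079 and -0.114, beside -0.044 over all genes. The difference in the mitochondrial share of counts ran from -0.068 to 0.00201 percentage points, with its sign turned without DTA-1 replicate 2 (0.00201). The log2 ratio of mitochondrial to nuclear members ran from -0.187 to 0.076 and turned without isotype control replicate 3 (0.050), DTA-1 replicate 1 (0.0014) or DTA-1 replicate 2 (0.076). When 1 library or another was left out, 63 of the 104 members tested changed sign, among them 20 of the 40 tested genes that the naming rule picked, none of those 20 past the threshold on either side. Their log2 fold changes then ran from -0.104 to 0.00837 for Cox6a1, -0.122 to 0.155 for Cox6a2, -0.0911 to 0.0771 for Cox6b1, -0.196 to 1.09 for Cox7a1, -0.0729 to 0.0667 for Cox7a2, -0.0867 to 0.0709 for Cox7b, -0.055 to 0.0686 for Cox8a, -0.0764 to 0.0137 for Cyc1, -0.0758 to 0.0137 for Ndufa4, -0.0934 to 0.00628 for Sdhc, -0.161 to 0.0223 for Sdhd, -0.0258 to 0.106 for Uqcrfs1, -0.209 to 0.0342 for mt-Co1, -0.174 to 0.13 for mt-Co2, -0.132 to 0.138 for mt-Cytb, -0.145 to 0.116 for mt-Nd1, -0.106 to 0.152 for mt-Nd4, -0.233 to 0.225 for mt-Nd4l, -0.0998 to 0.154 for mt-Nd5 and -0.274 to 0.00791 for mt-Nd6. With all libraries, 7 of the 40 changed sign. With total counts the values were -0.0256 for Cox6a2, -0.0024 for Sdha, -0.0135 for mt-Nd1, -0.00596 for mt-Nd4 and -0.0054 for mt-Nd4l, with nuclear copies added 0.0066 for mt-Co2, and for Cox8a 0.0035 by DESeq2's Wald test, 0.0029 with its size factors, 0.0025 by limma-trend and 0.0024 with the replicate block. The cause of these changes was not tested. Whether the replicate numbers pair the libraries is not known. The deviations of same-numbered libraries correlated at -0.0069, -0.0028 and 0.015 over the genes tested, and those of differently numbered libraries at -0.014 to 0.016. Correlations this near 0 for every pair cannot decide it. With the replicate block 0 members and 1 gene in all were differentially expressed, and 3 members had an unadjusted p under 0.05. With 3 libraries a group, changes of members under about 15 normalized counts could not be bounded within 1.5-fold for Cox6a2, Cox6b2, Cox7a1 and Atp5s.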
